A study of Mus musculus with 6 samples.

Results

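The 10 genes described here encode subunits of the SWI/SNF (BAF) chromatin remodeling complexes. They were chosen by name from the 23420 gene symbols of the deposited tables: Smarca4 and Smarca2 (the ATPases), Smarcc1, Smarcc2, Smarcb1 and Smarcd2 (core subunits), Arid1a and Arid1b (the ARID subunits of canonical BAF), and Arid2 and Pbrm1 (subunits of PBAF). All 10 had a row in the tables and passed the filter on low counts in the fit over all genes. The RNA was that of 2 dysplastic stem cell (DSC) subpopulations, labelled DP-DSCs and TP-DSCs, which were sorted by flow cytometry out of mouse dysplastic epithelial organoids of the Meta4 line. DP and TP are read here as double positive (CD133, CD166) and triple positive (with CD44v6 added), which the study is known for and the labels do not spell out. Each group had 3 libraries. All came from the same organoid line, the labels give no treatment, genotype or time that differs between the groups, and 1 line cannot show how such cells vary between lines.

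SWI/SNF complexes use ATP to slide or eject nucleosomes and so change which enhancers and promoters are open. Each complex carries 1 catalytic ATPase, either Smarca4 (BRG1) or Smarca2 (BRM), on a core built around Smarcc subunits with a Smarcd subunit, and in BAF and PBAF also Smarcb1. Arid1a or Arid1b defines canonical BAF, Arid2 with Pbrm1, Brd7 and Phf10 defines PBAF, and Brd9 with Bicra or Bicral defines the non-canonical form, which lacks Smarcb1. ARID1A is among the genes most often mutated in human gastric cancer, and loss of one paralog can leave cells dependent on the other.

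Several members are paralogs, so the transcripts were first compared for stretches that a read could share. The coding stretches around the longest identical run of the ATPase pair and of the scaffold pair are printed because they bear on whether reads of the 2 partners can be separated. Sequences are from GENCODE M21 transcripts (GRCm38), the longest coding transcript per gene, 5′ to 3′ in the sense direction. Capitals mark bases that are the same at that place in the partner.
Smarca4: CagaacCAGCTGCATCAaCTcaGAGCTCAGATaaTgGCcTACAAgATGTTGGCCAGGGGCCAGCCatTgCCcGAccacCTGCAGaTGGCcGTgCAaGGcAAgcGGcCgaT
Smarca2: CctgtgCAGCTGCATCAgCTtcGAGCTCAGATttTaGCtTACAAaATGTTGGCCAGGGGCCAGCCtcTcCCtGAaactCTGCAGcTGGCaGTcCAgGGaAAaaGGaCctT
Smarcc1: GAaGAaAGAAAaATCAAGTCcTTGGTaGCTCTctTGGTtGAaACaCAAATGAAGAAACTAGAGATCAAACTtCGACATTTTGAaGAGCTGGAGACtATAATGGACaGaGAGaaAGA
Smarcc2: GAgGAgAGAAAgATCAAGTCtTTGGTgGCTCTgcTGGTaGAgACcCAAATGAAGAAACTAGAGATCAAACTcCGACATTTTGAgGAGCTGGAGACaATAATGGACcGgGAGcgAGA
The ATPase stretches span bases 780 to 889 of the Smarca4 transcript and 744 to 853 of the Smarca2 transcript and share 79 of 110 bases. The scaffold stretches span bases 2739 to 2854 of Smarcc1 and 2750 to 2865 of Smarcc2 and share 99 of 116 bases. The longest run of identical bases was 20 between Smarca4 and Smarca2, 26 between Smarcc1 and Smarcc2, and 29 between Arid1a and Arid1b. It follows from these runs that 0 of the 30-base windows of Smarca4, Smarcc1 and Arid1a occurred in the partner's transcript. The read length is not given in the sources used here, so these windows describe the transcripts and not the reads.

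Reads assigned to genes ranged from 27027919 to 32671039 per DP-DSCs library and from 17015581 (replicate 2) to 31068454 per TP-DSCs library. Genes with at least 1 read numbered 12504 to 14434 in DP-DSCs against 10571 to 10982 in TP-DSCs. The library names begin with 3840 or 4140, which the labels do not explain; 3840 held 1 library of each group (replicate 1 of both) and 4140 held 2 of each. The labelled epithelial cell type was checked against its markers, and the 8 epithelial genes, among them Epcam, Krt8 and Krt18, summed to 8330 to 10700 CPM (counts scaled to a library total of 1000000 gene reads) over all libraries. Of 8 fibroblast markers 6 had no reads in any library, Col1a2, Col3a1, Pdgfrb, Dcn, Lum and Thy1, and the list summed to 0.704 to 3.19 CPM in DP-DSCs against 0 to 2.9 in TP-DSCs. Of 6 endothelial markers Pecam1, Tie1 and Emcn had no reads, with sums of 0.245 to 1.78 and 0 to 5.0 CPM. Of the immune markers, Cd3e had no reads. The immune sum was 5.69 to 48.2 CPM in DP-DSCs against 0 to 17.3 in TP-DSCs, nearly all of it Cd68, while Ptprc reached at most 0.092 CPM. The extraction protocol calls the samples independent but names no separate cultures, so the p-values below measure the spread between these libraries, which may be technical.

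The 10 members spanned about an order of magnitude in mean abundance, and their order was much the same in every library. Levels of different genes are compared per length, as CPM per kb of the longest coding transcript. Smarca4 ranked first of the 10 in all 6 libraries, from 40.2 to 62.4 CPM per kb with a median of 53.7. The core subunits followed, Smarcd2 with 34.3 to 50.3, Smarcb1 with 20.1 to 54.7, Smarcc2 with 24.4 to 40.7 and Smarcc1 with 19.7 to 40.4 CPM per kb. These 4 overlapped in range and held ranks 2 to 5 in every library, so their order among themselves was not resolved. Lower among the 10 were Arid1a at 10.3 to 24.4, Pbrm1 at 9.08 to 18.9 and Arid2 at 6.89 to 9.72 CPM per kb. Arid1b (4.11 to 6.61) and Smarca2 (0.874 to 7.93 CPM per kb) took the last 2 ranks in every library, in either order. Among the tested genes with a length, mean levels per kb stood at percentile 87.4 for Smarca4 and 30.6 for Smarca2. Dividing by all annotated exon bases instead kept Smarca4 first and Smarca2 last in every library and moved Smarcb1 down to ranks 6 to 9, because its annotated exons cover 7930 bases against 1660 in its coding transcript.

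**Figure D1:**
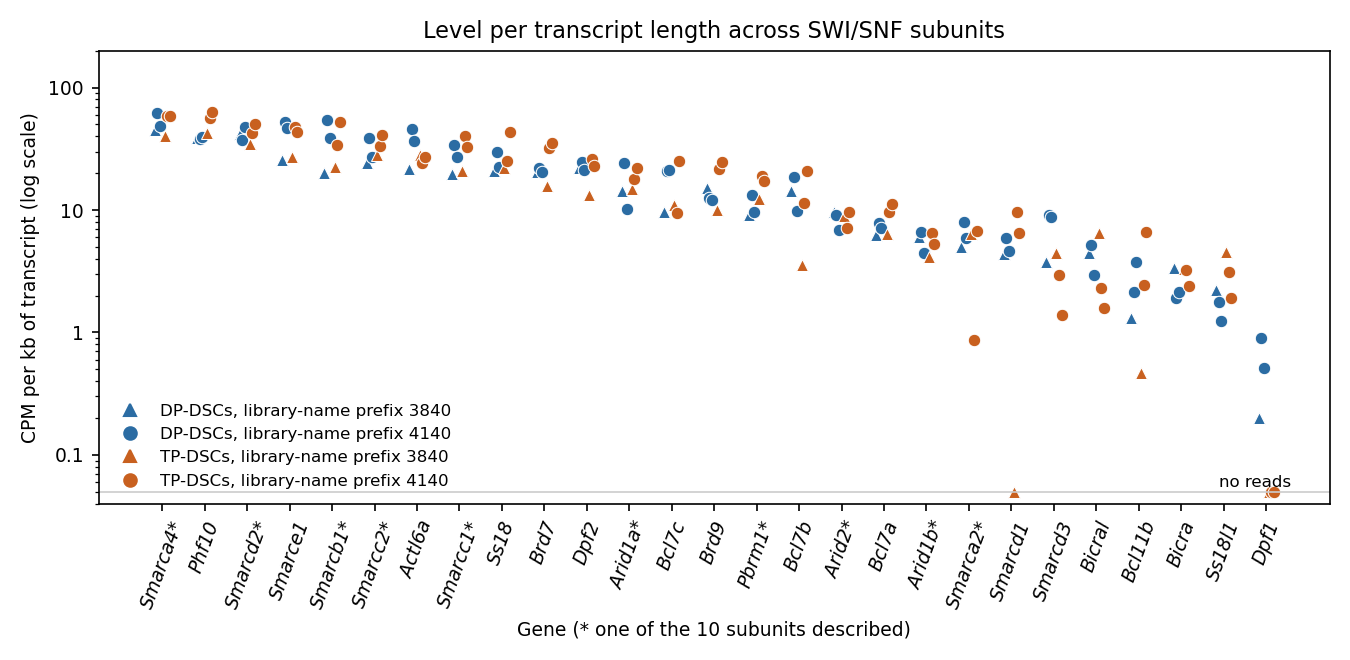
Level of each SWI/SNF subunit per transcript length (vertical axis, CPM per kb of the longest coding transcript, log scale), 1 point per library, blue for DP-DSCs and orange for TP-DSCs, triangles for library names beginning with 3840 and circles for 4140. Points on the grey line had no reads; subunits with reads in fewer than 3 libraries are left out. Smarca4 lies highest of the 10 starred genes in every library (40.2 to 62.4), and 1 TP-DSCs library lies far below the others for Smarca2 (0.874).

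Smarca4, the predominant ATPase, stood at nearly the same level in both subpopulations. It had 289, 398 and 312 CPM in DP-DSCs replicates 1, 2 and 3 against 256, 373.5 and 372 CPM in TP-DSCs replicates 1, 2 and 3. The groups overlapped, with the 2 libraries named 3840 lowest in each group. The means were 333 ± 57.4 and 334 ± 67.4 CPM (SD, n = 3 each), and the log2 fold change of TP-DSCs over DP-DSCs was -0.01 with a 95% interval of -0.46 to 0.43. That interval allows changes of up to about 0.728-fold or 1.34-fold.

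Smarca2, the alternative ATPase, was lower per length and set apart by 1 library. It had 29.4, 47.0 and 34.8 CPM in DP-DSCs against 37.7, 5.17 and 39.7 CPM in TP-DSCs. TP-DSCs replicates 1 and 3 lay within the DP-DSCs range, and TP-DSCs replicate 2, with 88 reads, lay 5.68-fold below the lowest of the other 5 libraries (29.4 CPM). The other 5 averaged 37.7 ± 6.49 CPM (SD). The log2 fold change was -0.41 with a 95% interval of -2.02 to 1.21 (edgeR adjusted p = 0.999), and it turned to 0.09 without TP-DSCs replicate 2. Other genes had drops of this kind, by a count chosen after the Smarca2 values were seen. Among genes with a mean of 20 to 80 CPM in the other 5 libraries, the share lying more than 4-fold below the lowest of them was 1.87% in TP-DSCs replicate 2 (91 of 4861 genes), 0.958% and 1.8% in TP-DSCs replicates 1 and 3, and 0 to 0.123% in the DP-DSCs libraries. The part of these losses in the Smarca2 value was not tested. Fewer cells with a transcript and less of it per cell cannot be told apart in bulk RNA.

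**Figure D2:**
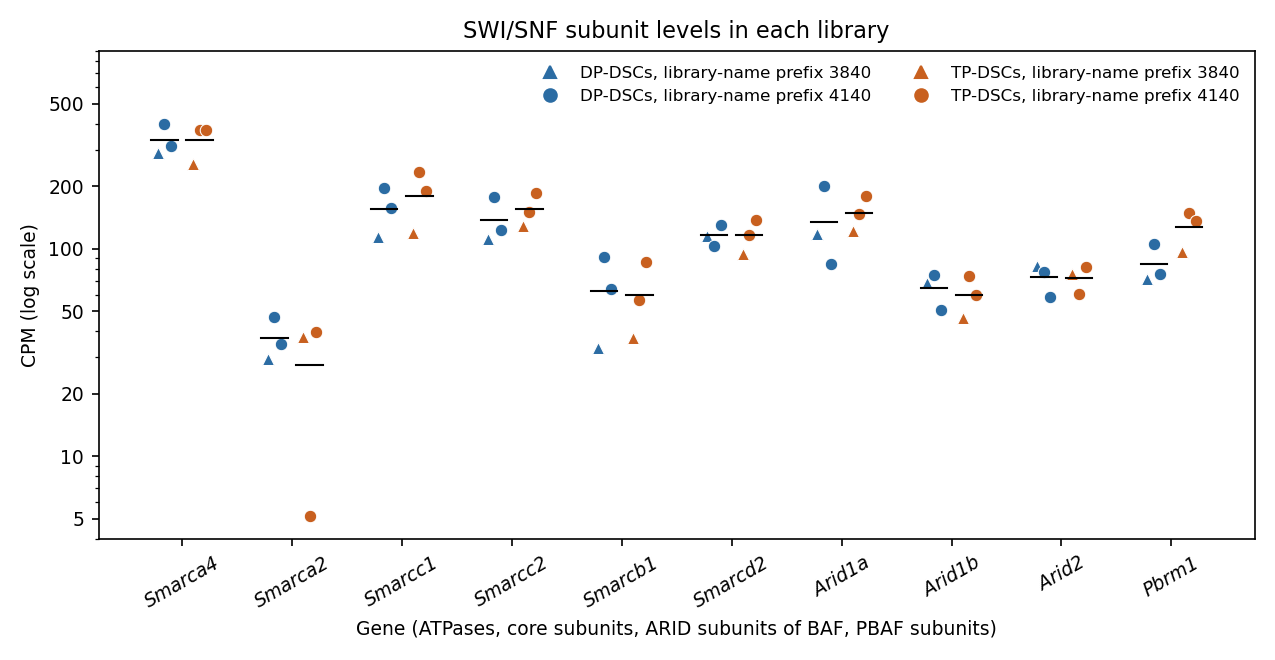
CPM of the 10 subunits (vertical axis, log scale) in each of the 6 libraries, blue for DP-DSCs and orange for TP-DSCs, triangles for library names beginning with 3840 and circles for 4140; black bars are the means of 3 libraries. The 2 groups overlap for every gene, Pbrm1 comes nearest to separation, and Smarca2 has 1 low TP-DSCs library (5.17 CPM).

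A ratio of 2 genes within a library does not depend on how libraries are scaled. Reads of Smarca4 outnumbered those of Smarca2 by 9.85, 8.47 and 8.97 in DP-DSCs replicates 1, 2 and 3 and by 6.79, 72.2 and 9.37 in TP-DSCs. Apart from TP-DSCs replicate 2 the excess lay between 6.79 and 9.85 in both groups. Per annotated exon base, the log2 ratio was 4.32 ± 0.11 (SD, n = 3) in DP-DSCs against 5.20 ± 1.85 in TP-DSCs, a difference of 0.87 (exact two-sided permutation p = 0.8, where 3 against 3 libraries cannot go below 0.1). The difference was -0.19 without TP-DSCs replicate 2, so its direction rests on that library. The size of the excess depends on the length used: over the 6 libraries the mean log2 ratio was 4.76 per annotated exon base and 3.51 per base of the longest coding transcript, the latter an 11.4-fold excess (6.31 to 67.1 over the libraries).

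The core scaffold subunits Smarcc1 and Smarcc2, which dimerise to seed assembly, had similar levels to each other and between the groups. Smarcc1 had 114, 197 and 158 CPM in DP-DSCs replicates 1, 2 and 3 against 119, 233 and 189 CPM in TP-DSCs. Smarcc2 had 111, 177 and 123 CPM in DP-DSCs against 128, 151 and 186 CPM in TP-DSCs. The groups overlapped for both genes, and replicate 1 was the lowest library of each group for both. The log2 fold changes were 0.19 (95% interval -0.43 to 0.81) and 0.16 (-0.32 to 0.65). Their log2 ratio per exon base was -0.32 ± 0.16 (SD, n = 3) in DP-DSCs against -0.31 ± 0.39 in TP-DSCs. Smarcc1 shares 123 exon bases with Dhx30 on the opposite strand, 1.57% of its annotated exon length.

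Smarcb1 and Smarcd2 complete the core. Smarcb1 (BAF47, a tumor suppressor lost in rhabdoid tumors) varied most among the core genes, at 33.4, 90.9 and 64.0 CPM in DP-DSCs against 37.2, 56.5 and 86.3 CPM in TP-DSCs. The spread within each group exceeded the difference between the means of 62.7 ± 28.8 and 60.0 ± 24.75 CPM (SD, n = 3 each), and the log2 fold change was -0.08 (95% interval -1.01 to 0.86). Smarcd2 (BAF60B, which links the core to transcription factors) was, with Arid2, among the steadiest members. It had 115, 103 and 131 CPM in DP-DSCs against 94.35, 116 and 138 CPM in TP-DSCs. The coefficient of variation over the 6 libraries was 14.2% for Smarcd2 and 14.5% for Arid2. For Smarcd2 the log2 fold change was -0.03 (95% interval -0.50 to 0.45). Over the 10 members the coefficient of variation ran from 14.2% to 44.9% (Smarca2). The 5826 tested genes within the members' range of mean level (32.3 to 334 CPM) had a median of 25.6%, with quartiles of 18.9% and 34.3%.

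The ARID subunits of canonical BAF kept a wide gap to each other. Arid1a had 118, 200.1 and 84.1 CPM in DP-DSCs against 122, 147 and 180 CPM in TP-DSCs. Arid1b had 68.6, 74.8 and 50.6 CPM in DP-DSCs against 46.5, 74.0 and 59.7 CPM in TP-DSCs. For both genes the groups overlapped. The log2 fold changes were 0.15 (95% interval -0.54 to 0.85) for Arid1a and -0.13 (-0.70 to 0.44) for Arid1b. Arid1a turned to -0.10 without DP-DSCs replicate 3, its lowest library. Per kb of coding transcript, Arid1a exceeded Arid1b by 3.07-fold on average (2.3 to 4.16 over the libraries). The log2 ratio per exon base was 1.11 ± 0.38 (SD, n = 3) in DP-DSCs against 1.46 ± 0.31 in TP-DSCs, a difference of 0.35 (exact two-sided permutation p = 0.3, and 0.75 adjusted over the 5 ratios computed).

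Pbrm1, the polybromo subunit that reads acetylated histones in PBAF, was the member with the largest upward difference. It had 71.8, 105 and 75.55 CPM in DP-DSCs against 96.9, 149 and 136 CPM in TP-DSCs. TP-DSCs replicates 2 and 3 lay above every DP-DSCs library and TP-DSCs replicate 1 lay just below DP-DSCs replicate 2. The means were 84.1 ± 18.15 and 127 ± 27.3 CPM (SD, n = 3 each). This is a TP-DSCs over DP-DSCs log2 difference of 0.58 ± 0.21 (SE), or 1.5-fold with a 95% interval of 1.07 to 2.1. Its unadjusted p was 0.0258 and its adjusted p over all genes was 0.569 in edgeR, from 0.202 to 1 over all alternatives, so it did not pass. The difference of mean log2 CPM was 0.46 in the pair named 3840 and 0.64 among the libraries named 4140. With each library's trend against transcript length and GC content removed, the log2 fold change was 0.36 (unadjusted p = 0.113); the Pbrm1 transcript has the lowest GC content of the 10 at 41.8%.

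Arid2, the ARID subunit that anchors Pbrm1 in PBAF, stood at similar levels in both groups. It had 82.7, 77.2 and 58.6 CPM in DP-DSCs against 75.5, 60.5 and 81.6 CPM in TP-DSCs, all within the same range, and a log2 fold change of -0.02 (95% interval -0.58 to 0.54). The log2 ratio of Arid1a over Arid2 per exon base was 0.71 ± 0.50 (SD, n = 3) in DP-DSCs against 0.94 ± 0.31 in TP-DSCs, and that of Arid1a over Pbrm1 was 0.22 ± 0.40 and -0.14 ± 0.23. Neither ratio separated the groups (exact two-sided permutation p = 0.6 and 0.3, adjusted 1 and 0.75).

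**Figure D3:**
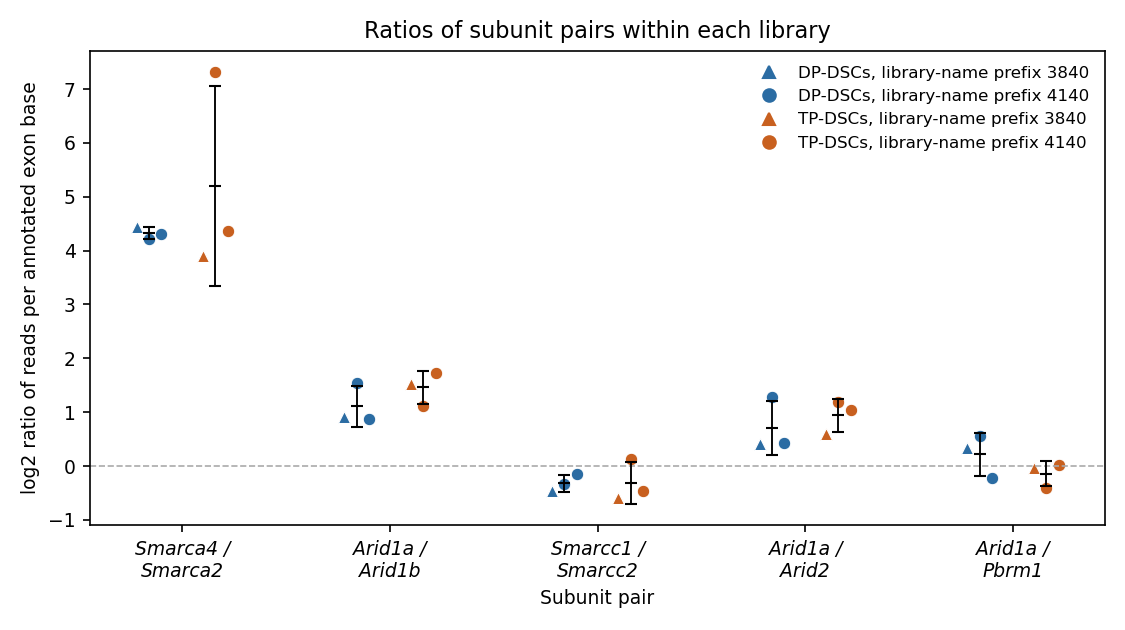
Log2 ratio of reads per annotated exon base for 5 pairs of subunits (vertical axis) in each library, blue for DP-DSCs and orange for TP-DSCs, triangles for names beginning with 3840 and circles for 4140; black bars are means ± SD of 3 libraries. The groups overlap for all 5 pairs, and the spread of Smarca4 over Smarca2 in TP-DSCs comes from 1 library at 7.31.

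Read together from the fit over all genes, 0 of the 10 members passed an adjusted p of 0.05 in edgeR, DESeq2 or limma-voom. In edgeR 0 of 11925 tested genes passed (0%), while DESeq2 called 93 of 11565 genes with an adjusted p (0.804%) and limma-voom 0. At an unadjusted p under 0.05 edgeR held 1 of 10 members, Pbrm1, beside 6.1% of all tested genes (1.43% higher and 4.67% lower in TP-DSCs). The members' log2 fold changes ran from -0.41 (Smarca2) to 0.58 (Pbrm1), 4 above and 6 below 0, with a median of -0.02, equal to the median of -0.02 over all tested genes. In 0 members did all TP-DSCs libraries lie above or below all DP-DSCs libraries, where 3.87% of tested genes lay above and 8.56% below. The median standard error of the members was 0.24, against 0.29 for genes of the same range of levels.

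**Figure D4:**
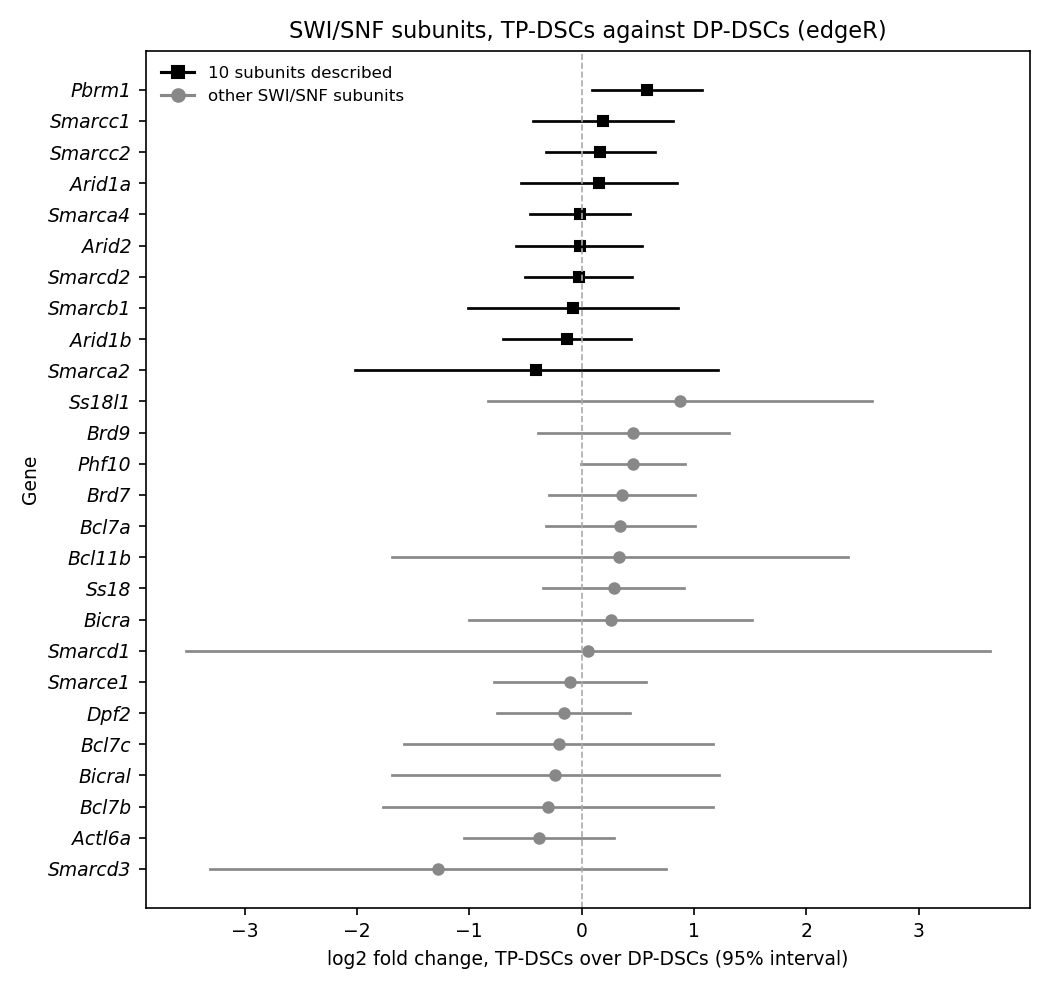
Log2 fold change of TP-DSCs over DP-DSCs from edgeR (horizontal axis) with 95% intervals, black squares for the 10 subunits and grey circles for other SWI/SNF subunits; Dpf1, without reads in TP-DSCs, is left out. Pbrm1 is the only gene shown whose interval (0.09 to 1.07) excludes 0, before any adjustment.

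Of 20 further subunits 17 were tested; Actl6b and Dpf3, subunits of the neuronal or muscle forms, had no reads in any library and Bcl11a had at most 0.092 CPM. Of the 17, 9 lay above and 8 below 0 with a median of 0.05. In edgeR 0 passed an adjusted p of 0.05 (smallest 0.121, Dpf1), and DESeq2 also called 0. At an unadjusted p under 0.05 edgeR held 1 of the 17, Dpf1, beside 6.1% of all tested genes. Dpf1 passed the filter on low counts only through its DP-DSCs reads, so its p depends on that filter. Its edgeR adjusted p was 0.344 with a filter on mean count and 0.658 with no filter. The subunits named here were those with the smallest p in the list, and none passed. Phf10 (BAF45A) had 65.0, 62.7 and 65.3 CPM in DP-DSCs against 70.9, 93.6 and 105 CPM in TP-DSCs. Every TP-DSCs library lay above every DP-DSCs library, as it did for 1 of the 17 subunits and for 3.87% of all tested genes, and the log2 fold change was 0.45 ± 0.20 (SE, edgeR adjusted p = 0.865). Phf10 shares 470 exon bases with 1600012H06Rik on the opposite strand. Brd7 averaged 76.3 ± 3.78 CPM in DP-DSCs against 101 ± 38.1 in TP-DSCs (SD, n = 3 each), with TP-DSCs replicate 1 lowest of all 6 at 57.1 CPM, and a log2 fold change of 0.36 ± 0.28. Brd9, of the non-canonical complex, averaged 32.1 ± 3.98 and 45.5 ± 18.9 CPM, again with TP-DSCs replicate 1 lowest.

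The further subunits included genes without reads in some TP-DSCs libraries. Dpf1 (BAF45B, typical of neuronal BAF) had 0.460, 2.08 and 1.18 CPM in DP-DSCs, while the TP-DSCs libraries held no reads of it. Against a floor of 3 counts over the TP-DSCs libraries it was at least 30.2-fold lower, for counting error only. That figure takes the DP-DSCs mean (1.24 ± 0.812 CPM, SD, n = 3) as given and leaves out the spread between libraries. Of the 3932 genes with a DP-DSCs mean above 0 and up to 2 CPM, 78.4% had no reads in any TP-DSCs library. Smarcd1 (BAF60A, a paralog of Smarcd2, named after its values were seen) had 14.4, 19.5 and 15.3 CPM in the DP-DSCs libraries. It had 31.9 CPM in TP-DSCs replicate 2, 21.4 CPM in replicate 3 and no reads in replicate 1, where the lowest of the other libraries' levels would give 359 reads. Among genes at a DP-DSCs mean of 10 to 20 CPM, the share without reads was 3.69% for TP-DSCs replicate 1, 8.68% for replicate 2 and 9.87% for replicate 3. Smarcd3 (BAF60C) averaged 12.6 ± 5.28 CPM in DP-DSCs against 5.07 ± 2.64 in TP-DSCs (log2 fold change -1.28 ± 0.87, edgeR adjusted p = 0.999); 50.1% of its exon bases are shared, mostly with Chpf2 on the opposite strand, so its reads are uncertain. Actl6a (BAF53A), the actin-like subunit of dividing cells, averaged 69.9 ± 24.4 and 53.4 ± 3.96 CPM (log2 fold change -0.38 ± 0.29).

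Other chromatin regulators were counted for comparison. Over all tested genes 48.2% lay above 0, with a median of -0.02. Of those with reads in all 6 libraries 51% lay above 0, with a median of 0.01. Of 26 other ATPases of the Snf2 family 25 had a row and 23 were tested. Among these, 19 lay above and 4 below 0, with a median of 0.23 and 0 past an adjusted or unadjusted p of 0.05 in edgeR. Atrx, which deposits histone H3.3 at repeats, averaged 141 ± 39.5 CPM in DP-DSCs against 239 ± 119.9 in TP-DSCs (SD, n = 3 each), with 377 CPM in TP-DSCs replicate 3 alone above 186.2. Shprh, with the smallest p of the list (unadjusted 0.0807, adjusted 0.987 in edgeR), averaged 33.1 ± 6.42 and 51.3 ± 16.4 CPM in the same order of groups. Chd8 averaged 69.1 ± 16.05 and 50.6 ± 12.15 CPM, and Ep400 126 ± 32.0 and 169 ± 39.6 CPM. Of 26 genes for Polycomb subunits, which can oppose SWI/SNF at shared promoters, and for the demethylases that remove the Polycomb mark H3K27me3, 21 lay above and 5 below 0, with a median of 0.26 and 0 past an adjusted or unadjusted p of 0.05 in edgeR. Ezh2, the methyltransferase of PRC2, averaged 67.0 ± 23.1 and 89.1 ± 24.2 CPM; the demethylase Kdm6b averaged 109.6 ± 18.45 and 145.5 ± 41.4, and Jarid2, a PRC2 cofactor, 31.7 ± 8.0 and 23.35 ± 2.44 CPM. Removing each library's trend against transcript length and GC content moved the log2 fold change of Atrx from 0.72 to 0.40 and of Shprh from 0.61 to 0.35. Ep400 moved from 0.41 to 0.31, Chd8 from -0.47 to -0.56 and Kdm6b from 0.39 to 0.44. Ezh2 moved from 0.41 to 0.39 and Jarid2 from -0.46 to -0.50. The difference between these lists and the SWI/SNF members, or all tested genes, was not tested.

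For some members the libraries differed more by the first number of their name than by group. Smarcb1, Smarcc1 and Smarca4 had both libraries named 3840 below all 4 named 4140, 3 of 10 members beside 13.5% of tested genes. With group kept in the fit, Smarcb1 was higher in the 4140 libraries by a log2 of 0.93 ± 0.29 (SE) and Smarcc1 by 0.59 ± 0.18, with unadjusted p of 0.0159 and 0.0148 and adjusted p of 0.437 and 0.423 in edgeR. These were 2 of 10 members at an unadjusted p under 0.05, beside 9.3% of all tested genes in either direction and 3.56% higher in the 4140 libraries, and 0 members or other genes passed after adjustment. With that number as a block, 0 members passed between TP-DSCs and DP-DSCs and Pbrm1 kept a log2 fold change of 0.58 (adjusted p = 0.396). In the pair named 3840 and the libraries named 4140, TP-DSCs minus DP-DSCs differences had the same sign for 4 of the 10 members. These were Smarcc1, Smarcc2, Arid1a and Pbrm1. So did 6 of 17 other SWI/SNF subunits, 11 of 23 other Snf2-family ATPases and 10 of 26 Polycomb and demethylase genes. The share over all tested genes is not given here, and the pair named 3840 holds 1 library of each group.

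In GRCm38, the assembly that mm10 names, Smarca4 and Smarcc1 share chromosome 9 and Smarcb1 and Smarcc2 share chromosome 10, and the other members lie on separate chromosomes. Smarca4 spans bases 21616169 to 21704230 of chromosome 9 and Smarca2 bases 26605050 to 26778322 of chromosome 19. Pbrm1 spans bases 31019138 to 31121592 of chromosome 14, Arid1a bases 133679008 to 133756769 of chromosome 4 and Smarcb1 bases 75896769 to 75921617 of chromosome 10.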

How the data were processed

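Per the labels' protocols, libraries were stranded and polyA-selected. The authors deposited 1 table per library with the raw read count of each gene symbol, unscaled as far as the values show. STAR 2.7.3a, Partek and DESeq2 3.5 and the build mm10 are named in the submitters' processing notes; how each was used, and the strand setting of the counting, is not given in the sources used here. Rows for reads in no gene (14.1 to 20.3% of reads) and ambiguous reads (1.09 to 1.86%) were left out. Replicates were numbered in deposit order, which pairs nothing. Replicates differed by a chi-square per degree of freedom of 112.2 or more, so none were merged as repeat runs of the same library. That check cannot show whether they came from separate cultures.

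CPM is the count over a library's gene reads. The fit used edgeR 4.0.16 in R 4.3.3 on all genes: filterByExpr (minimum count 10, total 15), trimmed mean of M values (TMM) scaling, quasi-likelihood F test on group, Benjamini-Hochberg adjustment at 0.05. Standard errors are the log2 fold change over the square root of F, and 95% intervals use the t distribution with the fit's degrees of freedom. The fit was also run on simulated counts, with changes larger than those of the members. The outcome is not given here, and that run does not show whether changes of the members' size could be detected. Lengths and coordinates came from GENCODE M21, which held all 10 members. Named genes were all members, then the smallest p in each other list (6, 4 and 3 genes). Members and lists were chosen with earlier results of these data known. Alternatives were DESeq2 1.42.0, limma-voom (limma 3.58.1), 3 other scalings, 2 other filters, the library-name number as a block or 4140 alone, removed length and GC trends, and each library left out; DESeq2 without the filter was added after seeing the data.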

Additional observations from a re-analysis of the deposited data

How the results depend on the processing

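No member passed an adjusted p of 0.05 under any alternative, and the members' median log2 fold change stayed between -0.07 and 0.15. Over all genes DESeq2 called 93 genes with the filter on low counts and 267 without it, where edgeR called 0 in every setting run; the cause was not tested. For 8 of the 10 members the sign was not stable, with 26 of 170 member values under alternatives on the other side of 0. Most of these members lay near 0, but Smarca2 stood at -0.41 in the main fit and at 0.09 without TP-DSCs replicate 2. With DESeq2 (either filter) or its size factors in edgeR, Smarca4 stood at 0.01 and Arid2 at 0.00, and Arid2 also at 0.00 in limma-voom. With library size only, Smarcd2 and Smarca4 stood at 0.00. Among libraries named 4140 alone, Smarcd2 stood at 0.06, Smarca4 at 0.02, Arid1b at 0.04 and Arid2 at 0.01. With length and GC trends removed, Smarcb1 stood at 0.10 and Smarcd2 at 0.11.

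Leaving out 1 library at a time gave log2 fold changes from -0.16 to 0.12 for Arid2, -0.40 to 0.22 for Smarcb1, -0.10 to 0.08 for Smarca4, -0.15 to 0.06 for Smarcd2, -0.10 to 0.49 for Arid1a, -0.01 to 0.36 for Smarcc1 and -0.80 to 0.09 for Smarca2. The difference in log2 ratio ranged from -0.19 to 1.52 for Smarca4 over Smarca2 and from -0.22 to 0.15 for Smarcc1 over Smarcc2; the former was 1.58 among libraries named 4140. Pbrm1 lay above 0 in every setting run. Its unadjusted edgeR p rose above 0.05 without DP-DSCs replicate 1 (0.0922) or 3 (0.107) and without TP-DSCs replicate 2 (0.0761) or 3 (0.0548). The same held with length and GC trends removed (0.113). No paired analysis was possible because the labels give no replicate numbers; the number in the library names, which both groups share, was fitted as a block and no member passed with it. Depth was lowest in TP-DSCs replicate 2 (17015581 gene reads), the library with the low Smarca2 value, and its part in the results was not tested.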
